A study of Homo sapiens with 9 samples.

Results

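The thioredoxin and peroxiredoxin system was followed through 10 genes: the thioredoxins TXN and TXN2, the thioredoxin reductases TXNRD1 and TXNRD2, the sulfiredoxin SRXN1, and the peroxiredoxins PRDX1, PRDX2, PRDX3, PRDX5 and PRDX6. The genes were taken by symbol, each matched 1 Ensembl identifier, and all 10 were among the 12662 genes tested, out of 41041 genes in the table. After sulforaphane with 5-fluorouracil, and after sulforaphane alone, 7 of the 10 mRNAs were higher than in untreated hypoxic cells, where 38.3% of all tested genes were higher with the pair and 27.5% with sulforaphane alone. Among more abundant genes (a mean of at least 5 FPKM, which leaves out only TXNRD2 of the members), these shares were 46% and 35.9%. The members were chosen with earlier results of these data known. TXNRD1 and TXN moved most, and the mitochondrial reductase TXNRD2 and the peroxiredoxins PRDX2 and PRDX6 passed the test for an increase in neither comparison with all 9 libraries.

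Thioredoxins are small proteins that reduce disulfides in other proteins through a pair of active-site cysteines, and thioredoxin reductases restore them with electrons from NADPH. Peroxiredoxins remove hydrogen peroxide and are oxidised at a cysteine, and thioredoxin reduces most of them again. Sulfiredoxin rescues typical 2-Cys peroxiredoxins that have been oxidised too far. TXN, TXNRD1, SRXN1, PRDX1, PRDX2 and PRDX6 act mainly in the cytosol, and TXN2, TXNRD2 and PRDX3 in mitochondria. Sulforaphane, an electrophilic isothiocyanate from cruciferous plants, is known to activate the transcription factor NRF2, and TXNRD1, SRXN1, TXN and PRDX1 are among the textbook targets of NRF2.

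The cells were SW480, an established human colorectal cancer line, kept at 1% oxygen for 48 h. The groups were hypoxia with sulforaphane and 5-fluorouracil (SFN+5-FU), hypoxia with sulforaphane at 25 µM (SFN), and hypoxia without treatment (control), with 3 libraries each that the design text calls biological replicates. For the combined group the labels give neither a sulforaphane nor a 5-fluorouracil dose. All groups share hypoxia, and no normoxic group and no group on 5-fluorouracil alone is analysed here, so every difference is one between hypoxic cells of 1 line.

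Expression was measured on poly(A) RNA and is given as FPKM, fragment counts scaled to transcript length and library size, which allows levels to be compared between genes. Pseudogene rows of the members reached at most 0.39 FPKM. The column totals were 259184 to 272235 FPKM, and the depth behind them is unknown. The level of a gene is relative to all other RNA of its library, so fewer cells with the transcript and less of it per cell cannot be told apart. The 6 epithelial markers summed to 1283 to 1296 FPKM with SFN+5-FU, 1324 to 1822 FPKM with SFN and 1827 to 1832 FPKM in control. Most of that sum is KRT8 and KRT18. EPCAM was at 114 to 144 FPKM over all 9 libraries, and the other 5 markers were lower with SFN+5-FU than in control (limma adjusted p at most 0.00477). CDH1, which encodes E-cadherin, averaged 5.18 FPKM with SFN+5-FU, 5.43 FPKM with SFN and 14.2 FPKM in control, and VIL1, which encodes villin, averaged 0.817 FPKM, 1.86 FPKM and 3.84 FPKM in the same groups. The leukocyte marker PTPRC was at 0 in every library, and the 9 markers of leukocytes, endothelium and fibroblasts summed to 1.74 to 2.79 FPKM with SFN+5-FU, 2.28 to 4.36 FPKM with SFN and 5.24 to 5.48 FPKM in control. LYZ and COL1A1 made up most of that sum, and COL1A2 and DCN were at most 0.01 FPKM. Both sums moved with the treatments, and their part in the results was not tested.

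One library stood apart from its label. The library labelled SFN replicate 2 was closer to the SFN+5-FU mean than to the mean of SFN replicates 1 and 3 for 10454 of the 12662 tested genes (82.6%), and likewise for 6 of the 10 members (TXN2, TXNRD1, SRXN1, PRDX3, PRDX5 and PRDX6). Its root mean square distance on the log2 scale was 0.153 from the SFN+5-FU mean and 0.402 from the mean of the other SFN libraries. It lay within the SFN+5-FU range for 5 of the 10 members, against 1 of the 10 for SFN replicate 1 and 1 of the 10 for SFN replicate 3. It is kept in its labelled group. The counts of called genes, and the log2 fold changes given for the SFN group, are also given without it. It also enters the estimate of spread that all 9 libraries share. Tests of SFN+5-FU against control, and counts of unadjusted p, are given with all libraries unless stated.

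Both reductases are selenoproteins, in which a UGA codon next to the end of the reading frame is read as selenocysteine. The last coding bases show what TXNRD1 and TXNRD2 share although their mRNAs moved differently, with the relative TXNRD3 beside them. The capitals mark the selenocysteine codon in the transcript written as DNA (GENCODE 29, GRCh38), which lies at chr12:104348413-104348415 on the plus strand for TXNRD1, chr22:19877111-19877113 on the minus strand for TXNRD2 and chr3:126607911-126607913 on the minus strand for TXNRD3.
TXNRD1: agcatcctccaggctggctgcTGAggt
TXNRD2: gaccccacggtgacaggctgcTGAggg
TXNRD3: gacatcactcagaaaggctgcTGAggc
In each of the 3 sequences the codon follows ggctgc, and 3 coding bases come after it. The gene bodies lie at chr12:104215779-104350305 for TXNRD1 and chr22:19875517-19941992 for TXNRD2, and those of TXN and SRXN1 at chr9:110243811-110256640 and chr20:646615-653370 on the minus strand. The labels name no build for the deposited values, so these positions serve as annotation only.

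Promoters were read for the antioxidant response element, which NRF2 is known to bind. Any part of NRF2 or of this element in the changes described here was not tested. RefSeq windows (GRCh38.p14) from 250 bases before to 50 after a transcript start were held for 7 of the 10 members, with 11 starts in all, and none was held for TXN2, PRDX1 and PRDX6. Both strands were searched for TGACNNNGC, the core of that element, its variant TGAGNNNGC, the E-box CACGTG and the hypoxia response core ACGTG, which also lies inside the E-box. Over all 35116 windows these occurred in 13.3%, 18.3%, 7.26% and 21.4%. TGACNNNGC was found among the members in TXNRD1 alone, at both of its starts. The 250 bases before these starts, and those before the first TXNRD2 start for comparison, are shown with each whole motif match in capitals.
TXNRD1 first start, chr12:104215529-104215778, plus strand: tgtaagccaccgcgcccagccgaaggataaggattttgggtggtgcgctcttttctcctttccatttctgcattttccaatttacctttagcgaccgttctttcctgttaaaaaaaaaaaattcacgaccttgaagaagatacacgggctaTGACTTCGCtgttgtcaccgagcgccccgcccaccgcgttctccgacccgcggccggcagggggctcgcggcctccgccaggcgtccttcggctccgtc
TXNRD1 second start, chr12:104286782-104287031, plus strand: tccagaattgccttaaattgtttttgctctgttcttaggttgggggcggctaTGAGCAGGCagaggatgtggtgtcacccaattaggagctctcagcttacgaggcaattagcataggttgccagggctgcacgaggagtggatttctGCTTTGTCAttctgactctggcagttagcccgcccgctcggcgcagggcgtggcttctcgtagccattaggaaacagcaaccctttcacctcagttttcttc
TXNRD2 first start, chr22:19941819-19942068, minus strand: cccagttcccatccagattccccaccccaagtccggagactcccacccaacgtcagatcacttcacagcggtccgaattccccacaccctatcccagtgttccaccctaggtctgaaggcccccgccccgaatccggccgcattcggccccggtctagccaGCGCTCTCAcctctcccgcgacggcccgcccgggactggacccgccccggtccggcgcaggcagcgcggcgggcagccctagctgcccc
At the first TXNRD1 start TGACNNNGC began 99 bases before the start, and a further match on the minus strand (GCTCCGTCA) ran over the start itself, past the bases shown, and is not capitalised. At the second start TGACNNNGC lay on the minus strand from 102 bases before the start (GCTTTGTCA), and TGAGNNNGC began 198 bases before it. TXNRD2 held only the variant, on the minus strand of its first start (GCGCTCTCA), and its other starts held none of the 4 motifs. Of the other members, PRDX3 held the E-box 157 bases before its start, with the overlapping core, and the variant, PRDX2 held the hypoxia response core and the variant, and the windows of TXN, SRXN1 and PRDX5 held none of the 4 motifs. A match is a run of letters and not a measured binding site. Sequence outside these windows was not searched, so a window without a match does not show that a gene lacks the element.

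Over all tested genes, 50.0% passed an adjusted p of 0.05 for SFN against control (27.5% higher, 22.5% lower) and 66.2% for SFN+5-FU against control (38.3% higher, 28.0% lower). Tests were made with limma on log2(FPKM + 1) with adjustment over all tested genes. Beside these shares, 7 of the 10 members rose with SFN and none fell, and 7 rose and 1 fell with SFN+5-FU. The members, and the lists of other genes below, were chosen with earlier results of these data known. Their counts and medians are therefore a description and no test of the set. An unadjusted p under 0.05 was reached by 7 of the 10 with SFN, and by 57.2% of all tested genes. Without SFN replicate 2 the counts with SFN were 8 higher and none lower, where 57.1% of all genes passed (30.0% higher, 27.1% lower). Those with SFN+5-FU were then again 7 higher and 1 lower, where 74.8% passed (43.2% higher, 31.6% lower). The median log2 fold change of the 10 members was 0.37 with SFN and 0.43 with SFN+5-FU, beside 0.05 and 0.10 over all tested genes, and 0.34 with SFN without SFN replicate 2, beside 0.02. All members but TXNRD2 had a mean of at least 5 FPKM. Of the 6939 genes at that level, 35.9% were higher with SFN and 46% with SFN+5-FU, with medians of 0.12 and 0.17. With all libraries, the SFN and control libraries did not overlap for 7 of the 10 members, where this held for 57.4% of all tested genes, and the SFN+5-FU and control libraries did not overlap for 9 of the 10, where it held for 78.8%. The same control libraries serve both comparisons, so they are not independent.

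**Figure D1:**
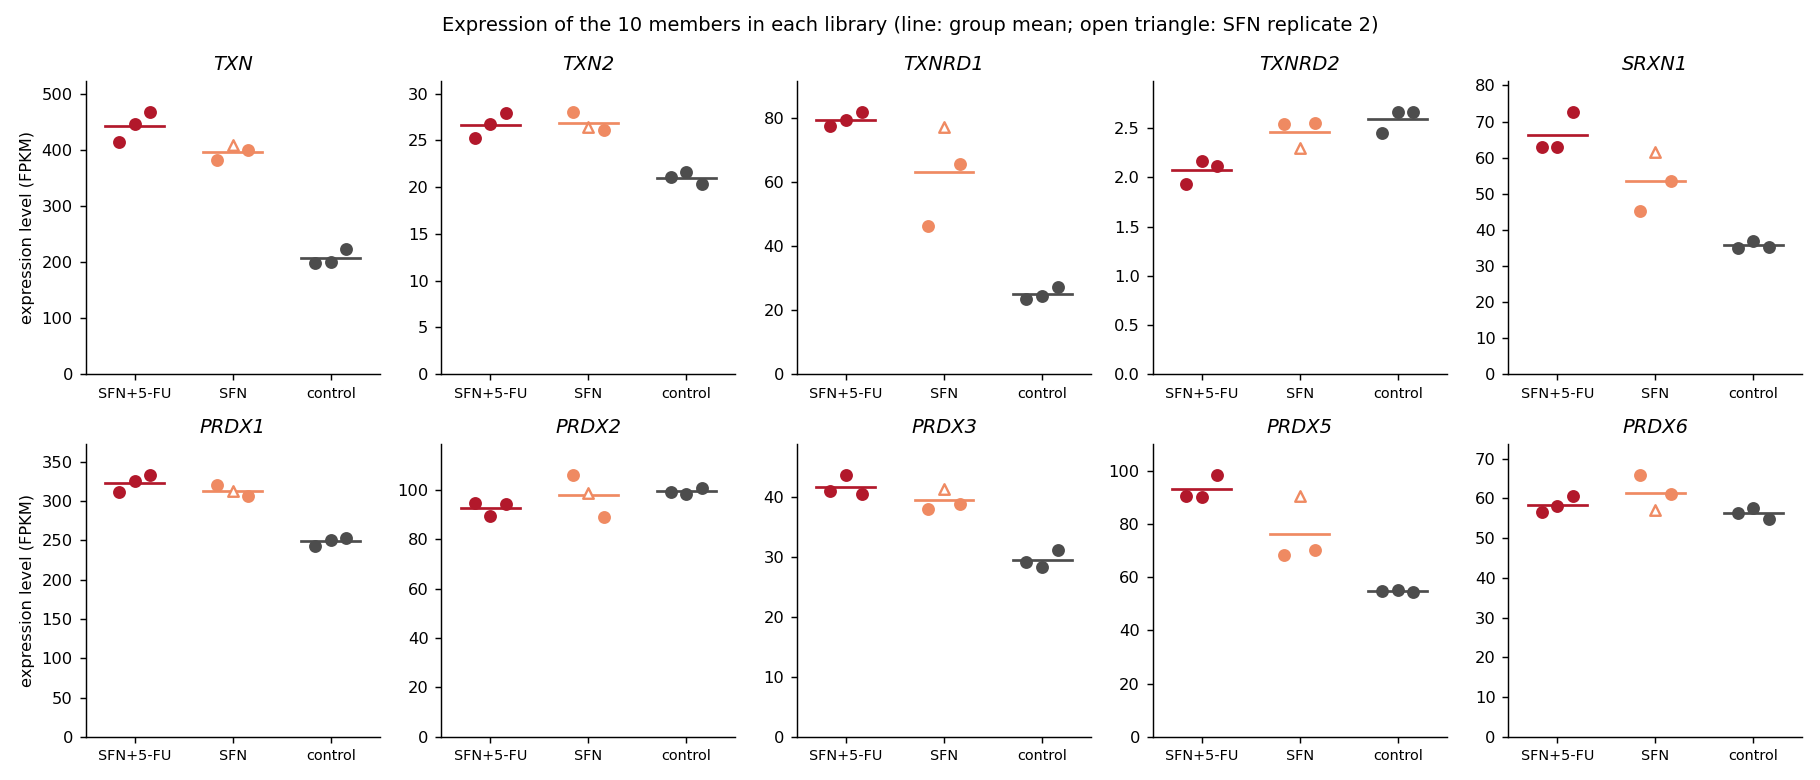
Expression level in FPKM (vertical axis, linear, from 0) of each of the 10 members in the SFN+5-FU, SFN and control libraries. Points are libraries, lines are group means of 3 libraries, and the open triangle is SFN replicate 2. TXN, TXN2, TXNRD1, SRXN1, PRDX1, PRDX3 and PRDX5 lie above all control libraries in both treated groups.

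TXN, the cytosolic thioredoxin, was at 413, 446 and 466 FPKM in the SFN+5-FU libraries, 382, 409 and 399 FPKM in the SFN libraries and 198, 200 and 223 FPKM in the control libraries. Every treated library was above every control library, and the lowest SFN+5-FU library was above the highest SFN library. TXN rose with SFN by 0.94 on the log2 scale (SE 0.0706, limma adjusted p = 2.46e-05), and by 0.91 without SFN replicate 2. With SFN+5-FU it rose by 1.09 (adjusted p = 8.92e-06), a level 2.13 times that of control. TXN2, the mitochondrial thioredoxin, was at 25.2, 26.7 and 27.9 FPKM with SFN+5-FU, 28.0, 26.4 and 26.1 FPKM with SFN and 21.1, 21.6 and 20.3 FPKM in control. Both treated groups lay above control and overlapped each other. TXN2 rose by 0.34 with SFN (adjusted p = 0.00187, and 0.35 without SFN replicate 2) and by 0.33 with SFN+5-FU (adjusted p = 0.00141), and the call for SFN+5-FU was lost with quantile normalization (0.15, adjusted p = 0.0827, the highest over the 21 alternatives, in a range from 7.28e-05).

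TXNRD1, the cytosolic thioredoxin reductase, showed the largest increase of the 10 members in both comparisons with control. It was at 77.55, 79.3 and 81.8 FPKM with SFN+5-FU, 46.3, 77.35 and 65.6 FPKM with SFN and 23.5, 24.6 and 27.3 FPKM in control. The 3 groups did not overlap, and the SFN libraries were spread far more widely than those of the other groups, with replicate 2 just under the SFN+5-FU libraries. With SFN+5-FU TXNRD1 averaged 79.6 ± 2.16 FPKM, against 25.1 ± 1.96 FPKM in control (SD, n = 3 each), a log2 fold change of 1.63 (SE 0.155, adjusted p = 4.10e-05). With SFN the log2 fold change was 1.27 (SE 0.155, adjusted p = 0.000242), and 1.11 without SFN replicate 2 (adjusted p = 0.000124).

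TXNRD2, the mitochondrial reductase, was the least abundant member and did not follow TXNRD1. It was at 1.93, 2.17 and 2.12 FPKM with SFN+5-FU, 2.54, 2.30 and 2.55 FPKM with SFN and 2.45, 2.66 and 2.66 FPKM in control. The SFN+5-FU libraries lay below all others. With SFN+5-FU it fell by 0.22 on the log2 scale (SE 0.0717, adjusted p = 0.0204). That call was lost with quantile normalization (-0.18, adjusted p = 0.0656), with a correction for GC content and transcript length (-0.06, adjusted p = 0.493), and without control replicate 2, control replicate 3 or SFN+5-FU replicate 1 (adjusted p = 0.0668, 0.0599 and 0.0820), over a range of alternatives from 0.004085 to 0.524. Against control, SFN gave a log2 fold change of -0.05 (95% interval -0.21 to 0.11, adjusted p = 0.568) and -0.02 without SFN replicate 2, and its sign turned with quantile normalization, library weights and the GC and length correction.

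SRXN1, which encodes sulfiredoxin, was at 62.9, 63.0 and 72.5 FPKM with SFN+5-FU, 45.1, 61.7 and 53.4 FPKM with SFN and 34.9, 36.9 and 35.3 FPKM in control. The groups did not overlap, and SFN replicate 2 was again the SFN library nearest to SFN+5-FU. With SFN+5-FU SRXN1 rose by 0.87 on the log2 scale (SE 0.107, adjusted p = 0.000144), to 1.85 times the control mean. With SFN it rose by 0.56 (adjusted p = 0.00251), and by 0.45 without SFN replicate 2 (adjusted p = 0.00180).

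Of the 5 peroxiredoxins, PRDX1, PRDX3 and PRDX5 rose in both comparisons with control, and PRDX2 and PRDX6 passed the test in neither. PRDX1, a typical 2-Cys peroxiredoxin of the cytosol and the most abundant of the 5, was at 311, 326 and 333 FPKM with SFN+5-FU, 321, 312 and 306 FPKM with SFN and 243, 251 and 253 FPKM in control. The treated groups overlapped each other and both lay above control. PRDX1 rose by 0.38 with SFN+5-FU (SE 0.0528, adjusted p = 0.000278) and by 0.33 with SFN (adjusted p = 0.000936, and 0.33 without SFN replicate 2). PRDX3, the typical 2-Cys peroxiredoxin of mitochondria, was at 41.0, 43.6 and 40.3 FPKM with SFN+5-FU, 38.0, 41.3 and 38.8 FPKM with SFN and 29.02, 28.3 and 31.0 FPKM in control. It rose by 0.48 with SFN+5-FU (adjusted p = 0.000184) and by 0.41 with SFN (adjusted p = 0.000792, and 0.37 without SFN replicate 2), with the treated groups overlapping each other but not control.

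PRDX5, an atypical 2-Cys peroxiredoxin found in mitochondria, peroxisomes and cytosol, was at 90.6, 90.2 and 98.3 FPKM with SFN+5-FU, 68.4, 90.3 and 70.3 FPKM with SFN and 54.8, 55.2 and 54.2 FPKM in control. SFN replicate 2 lay inside the SFN+5-FU range, and SFN replicates 1 and 3 lay between that range and control. PRDX5 rose by 0.75 with SFN+5-FU (SE 0.0989, adjusted p = 0.000193) and by 0.46 with SFN (adjusted p = 0.00439), and by 0.34 without SFN replicate 2 (adjusted p = 0.000522).

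PRDX2, the second cytosolic 2-Cys peroxiredoxin and abundant in red blood cells, was at 94.6, 89.5 and 94.2 FPKM with SFN+5-FU, 105.95, 98.6 and 89.1 FPKM with SFN and 99.1, 98.4 and 101 FPKM in control. The SFN+5-FU libraries lay just below control, and the SFN libraries spanned the control range. The log2 fold change with SFN+5-FU was -0.10 (95% interval -0.25 to 0.06, adjusted p = 0.226). It passed the threshold with median-of-ratios scaling (-0.21, adjusted p = 0.0358), with quantile normalization (-0.23, adjusted p = 0.0123) and with the 6 libraries compared alone (adjusted p = 0.0452), the alternatives reaching up to 0.456. With SFN it was -0.03 (interval -0.18 to 0.13, adjusted p = 0.775), also -0.03 without SFN replicate 2 and 0.04 without SFN replicate 3.

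PRDX6, the 1-Cys peroxiredoxin, which is recharged by glutathione rather than thioredoxin and also has phospholipase activity, was at 56.65, 58.1 and 60.55 FPKM with SFN+5-FU, 65.8, 57.2 and 61.0 FPKM with SFN and 56.3, 57.7 and 54.8 FPKM in control. Both treated groups overlapped control. The log2 fold change with SFN+5-FU was 0.05 (95% interval -0.09 to 0.20, adjusted p = 0.479), and its sign turned with median-of-ratios scaling, quantile normalization and the GC and length correction. With SFN it was 0.12 (interval -0.03 to 0.27, adjusted p = 0.148). PRDX6 passed the threshold for SFN without SFN replicate 2 (0.17, adjusted p = 0.0217) and with library weights (0.12, adjusted p = 0.0229), and turned sign with the GC and length correction (-0.05).

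**Figure D2:**
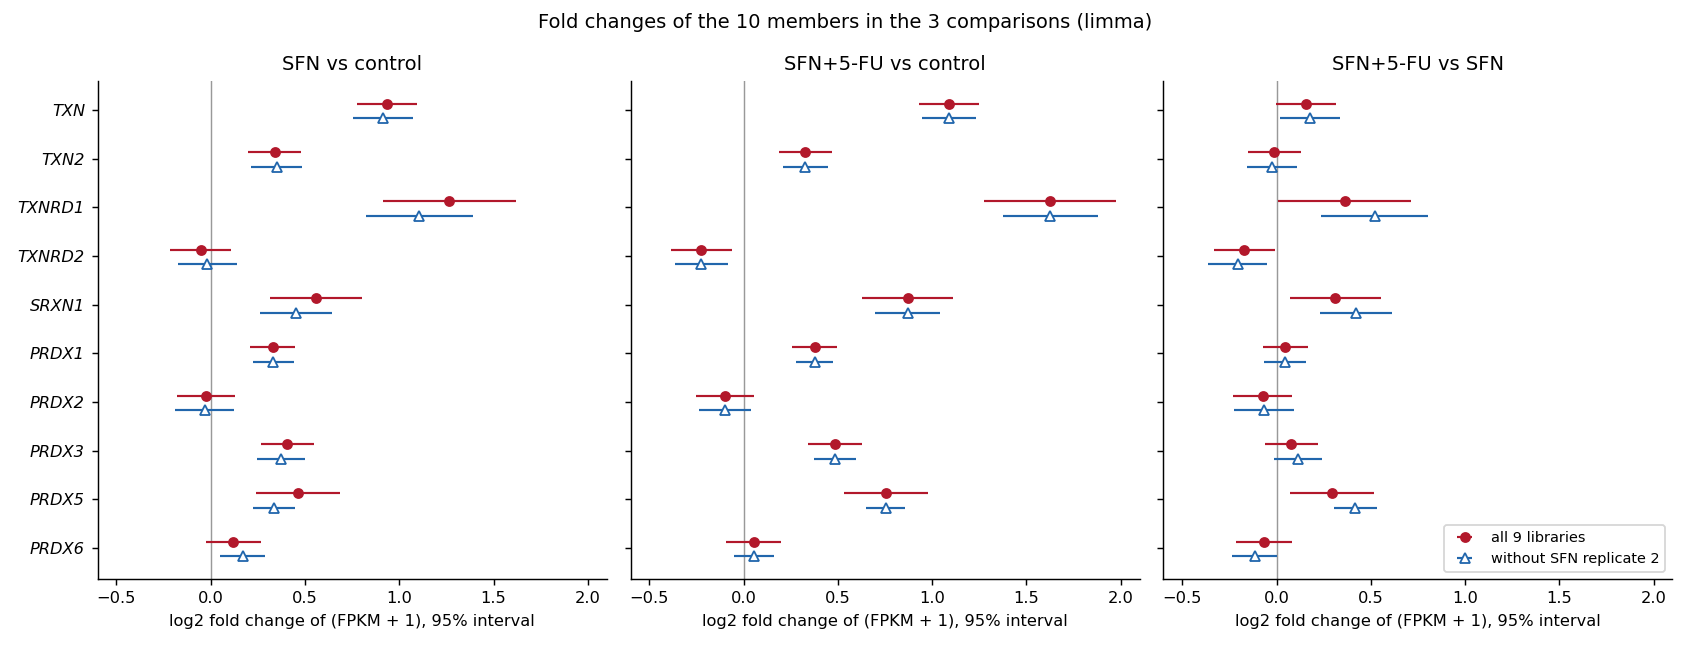
Log2 fold changes of FPKM + 1 (horizontal axis) with 95% intervals from limma for the 10 members in the comparisons of SFN with control, SFN+5-FU with control and SFN+5-FU with SFN. Filled circles use all 9 libraries and open triangles leave out SFN replicate 2. Intervals of TXNRD1, SRXN1 and PRDX5 in the last comparison are narrower and farther from 0 without that library, with values of 0.52, 0.42 and 0.42.

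The comparison of SFN+5-FU with SFN sets the drug pair against sulforaphane alone, and here 1 library decided the outcome. With all libraries, none of the 10 members passed the limma test, 4 of the 10 had an unadjusted p under 0.05 (TXNRD1, TXNRD2, SRXN1 and PRDX5) beside 31.4% of all tested genes, and 0.00790% of all tested genes passed, which is 1 gene. The groups did not overlap for TXN, TXNRD1, TXNRD2 and SRXN1, where 20.9% of all tested genes did not overlap. Without SFN replicate 2, 51.1% of all genes passed (29.7% higher, 21.5% lower), and among the members TXNRD1, SRXN1 and PRDX5 were higher and TXNRD2 lower with SFN+5-FU. TXNRD1 then differed by 0.52 on the log2 scale (adjusted p = 0.00784), against 0.36 with all libraries (95% interval 0.01 to 0.71, adjusted p = 0.152). SRXN1 differed by 0.42 (adjusted p = 0.00322), against 0.31 (interval 0.07 to 0.55, adjusted p = 0.134). PRDX5 differed by 0.42 (adjusted p = 0.000216), against 0.29 (interval 0.07 to 0.52, adjusted p = 0.134). TXNRD2 differed by -0.21 (adjusted p = 0.0321), against -0.17 (interval -0.33 to -0.01, adjusted p = 0.145). The other 6 members did not pass either way, TXN coming nearest at 0.18 (adjusted p = 0.0628) without SFN replicate 2 and 0.15 (adjusted p = 0.167) with it. TXN2 had log2 differences of -0.01 and -0.02, with an interval of -0.15 to 0.13 in the first case, and PRDX1 had 0.05 and 0.04, with an interval of -0.07 to 0.17.

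The order of the members by level changed under treatment. In control PRDX1 was highest at 248.98 ± 5.16 FPKM, with TXN next at 207 ± 14.2 FPKM, while with SFN+5-FU TXN was at 442 ± 26.8 FPKM and PRDX1 at 323 ± 11.0 FPKM, and with SFN TXN was at 397 ± 13.96 FPKM and PRDX1 at 313 ± 7.59 FPKM (SD, n = 3 each). In none of the groups did the libraries of TXN and PRDX1 overlap. PRDX2 came at rank 3 in control with 99.4 ± 1.17 FPKM, and PRDX6 and PRDX5 followed, overlapping each other. TXNRD1 stood at rank 5 of 10 with SFN+5-FU and SFN, and at rank 8 in control, below SRXN1 and PRDX3. With SFN, the ranges of PRDX2, PRDX5, TXNRD1, PRDX6 and SRXN1 each overlapped the next, so their order is not resolved. TXN2 and TXNRD2 held the lowest 2 ranks in all 3 groups.

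Ratios within a library compare the cytosolic thioredoxin and reductase with their mitochondrial relatives. The peroxiredoxins did not split this way, since mitochondrial PRDX3 was among those that rose and cytosolic PRDX2 and PRDX6 were not. TXN exceeded TXN2 by a factor of 16.4 to 16.7 with SFN+5-FU, 13.6 to 15.5 with SFN and 9.25 to 11.0 in control. TXNRD1 exceeded TXNRD2 by a factor of 40.2, 36.55 and 38.6 with SFN+5-FU, 18.2, 33.6 and 25.7 with SFN, and 9.59, 9.24 and 10.3 in control. The groups did not overlap for either ratio. There were 5.33 to 5.70 TXN per TXNRD1 with SFN+5-FU and 8.14 to 8.415 in control, while the SFN libraries were at 8.245, 5.29 and 6.09, with replicate 1 inside the control range. PRDX1 exceeded SRXN1 by a factor of 4.905 ± 0.291 with SFN+5-FU, 5.97 ± 1.05 with SFN and 6.98 ± 0.179 in control. For this ratio SFN replicate 1, at 7.115, lay inside the control range (6.81 to 7.166). SFN replicate 2, at 5.064, lay inside the SFN+5-FU range (4.593 to 5.17). The summed FPKM of the 5 peroxiredoxins was 594, 607 and 627 with SFN+5-FU, 599, 600 and 565 with SFN and 482, 491 and 494 in control, and PRDX1 made up 52.4 to 53.7%, 52.1 to 54.1% and 50.4 to 51.2% of that sum. All 10 members together held 0.465 ± 0.0182% of the summed FPKM with SFN+5-FU, 0.421 ± 0.01885% with SFN and 0.2915 ± 0.00591% in control.

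**Figure D3:**
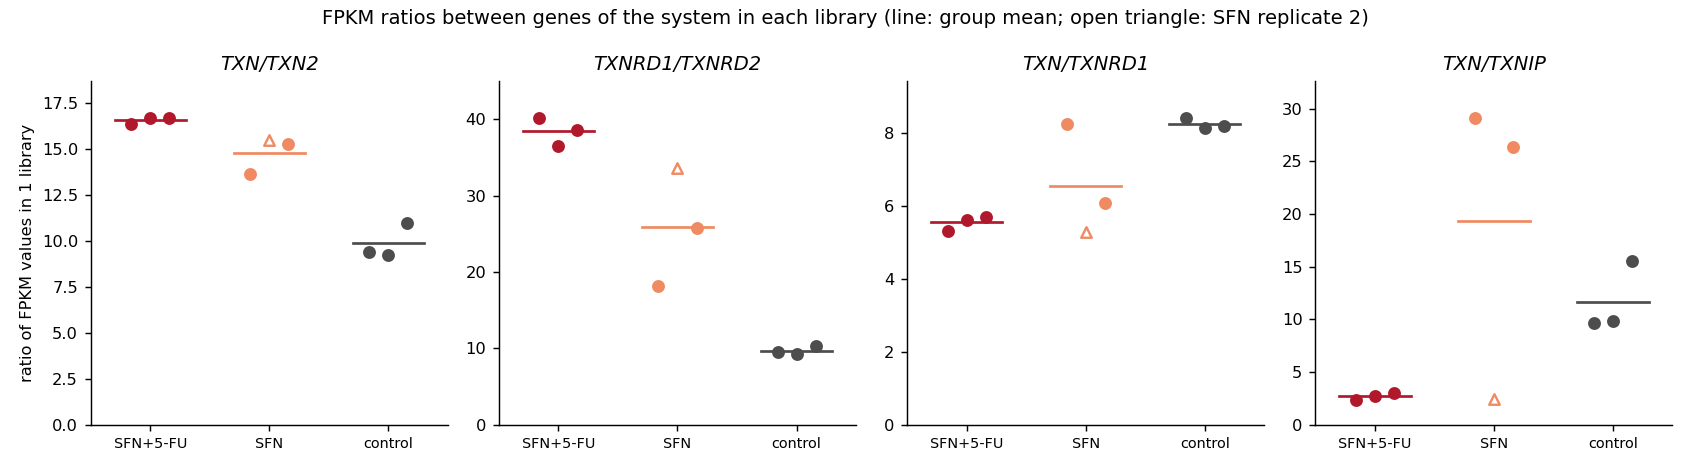
Ratios of FPKM values within each library (vertical axis, linear, from 0) for TXN to TXN2, TXNRD1 to TXNRD2, TXN to TXNRD1 and TXN to TXNIP, in the SFN+5-FU, SFN and control libraries. Points are libraries, lines are group means, and the open triangle is SFN replicate 2, which at 2.48 TXN per TXNIP lies with the SFN+5-FU libraries and far from SFN replicates 1 and 3 at 29.1 and 26.4.

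TXNIP, the arrestin-like protein that binds reduced thioredoxin and holds it inactive, was at 176, 161 and 155 FPKM with SFN+5-FU, 13.1, 165 and 15.1 FPKM with SFN and 20.4, 20.4 and 14.4 FPKM in control. With SFN+5-FU it rose by 3.10 on the log2 scale (limma adjusted p = 0.00615, and 2.56e-07 without SFN replicate 2), so that TXN per TXNIP was 2.35 to 3.01 with SFN+5-FU, against 9.70 to 15.5 in control. With SFN the log2 fold change was 0.81 (SE 0.771, adjusted p = 0.407) and -0.35 without SFN replicate 2 (adjusted p = 0.0593), so its sign rests on that library. Against SFN it was 2.29 (adjusted p = 0.134) with all libraries and 3.45 (adjusted p = 5.13e-06) without SFN replicate 2.

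The genes whose pattern over the 9 libraries was most like that of TXNRD1, by root mean square difference of centred log2 values, were ATF5 (0.0289), H2BC11 (0.0727) and DDIAS (0.09998). H2BC11 is a histone gene with near-identical copies, so its level is uncertain. ATF5, a stress-responsive transcription factor, was at 17.7, 18.5 and 18.85 FPKM with SFN+5-FU, 10.9, 17.55 and 14.9 FPKM with SFN and 4.72, 5.09 and 5.85 FPKM in control. For SRXN1 they were NFKBIA (0.0403), which encodes the NF-kB inhibitor IkB-alpha, IRF1 (0.0490), an interferon-regulated transcription factor, and the long noncoding RNA LINC00857 (0.0588). NFKBIA was at 26.8, 28.1 and 32.45 FPKM with SFN+5-FU, 19.4, 28.4 and 22.7 FPKM with SFN and 15.7, 15.5 and 15.0 FPKM in control. Each of these genes shares with its member the position of SFN replicate 2 near SFN+5-FU, and the values are a description over these 9 libraries.

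Around the members, 51 other genes were followed in 5 lists, of which 50 were matched and 46 passed the expression filter (a mean of at least 1 FPKM). With SFN 19 of the 46 rose and 10 fell, and with SFN+5-FU 22 rose and 10 fell. Without SFN replicate 2 they were 20 and 14 with SFN, where 57.1% of all tested genes passed, and 23 and 14 with SFN+5-FU, where 74.8% passed. Without control replicate 1 the increases with SFN numbered 12, where 37.9% of all tested genes passed and 20.5% were higher. Their median log2 fold change was 0.17 with SFN and 0.14 with SFN+5-FU, beside 0.05 and 0.10 over all tested genes. The median with SFN was 0.10 without SFN replicate 2, beside 0.02. These counts with all libraries, and those of each list below, are set against 50.0% of all tested genes called with SFN (27.5% higher, 22.5% lower). With SFN+5-FU the share was 66.2% (38.3% higher, 28.0% lower).

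Of the 21 relatives with a thioredoxin fold, 11 rose and 4 fell with SFN, and 12 rose and 3 fell with SFN+5-FU. These were 11 and 5 with SFN and 12 and 6 with SFN+5-FU without SFN replicate 2. PRDX4, the peroxiredoxin of the endoplasmic reticulum, was at 48.4, 51.1 and 52.3 FPKM with SFN+5-FU, 45.0, 47.9 and 45.2 FPKM with SFN and 30.1, 31.2 and 30.9 FPKM in control. It rose by 0.70 with SFN+5-FU (adjusted p = 1.87e-05) and by 0.57 with SFN (adjusted p = 8.79e-05, and 0.54 without SFN replicate 2). TXNL4B, a thioredoxin-like protein linked to pre-mRNA splicing, was at 14.9, 16.2 and 15.3 FPKM with SFN+5-FU, 5.54, 15.8 and 5.71 FPKM with SFN and 2.82, 3.51 and 3.43 FPKM in control. It rose by 1.96 with SFN+5-FU (adjusted p = 0.000493) and by 1.09 with SFN (adjusted p = 0.0153), where it was 0.64 without SFN replicate 2 (adjusted p = 0.000207) and lost its call without control replicate 1 (adjusted p = 0.0538, the alternatives reaching down to 0.000181). TXNRD3, a reductase with a glutaredoxin domain known from mouse testis, fell by 0.96 with SFN+5-FU and by 0.82 with SFN (adjusted p = 0.000109 and 0.000434, and 0.71 without SFN replicate 2 for SFN). It was at 1.57, 1.33 and 1.58 FPKM with SFN+5-FU, 1.83, 1.39 and 2.08 FPKM with SFN and 3.79, 4.36 and 3.42 FPKM in control.

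Of the 9 tested clients and partners of thioredoxin, 2 rose and 1 fell with SFN, and 4 rose and 1 fell with SFN+5-FU. Without SFN replicate 2 the counts with SFN were 2 higher and 3 lower, where 30.0% of all tested genes were higher and 27.1% lower. RRM2B (limma adjusted p = 0.0245) and MSRB3 (adjusted p = 0.04997, just under the threshold) were then added to the lower genes. With SFN+5-FU 5 were then higher and 1 lower, where 43.2% of all tested genes were higher and 31.6% lower. RRM2, a subunit of ribonucleotide reductase, which takes electrons from thioredoxin, was at 94.5, 103 and 99.2 FPKM with SFN+5-FU, 50.6, 91.85 and 60.9 FPKM with SFN and 32.1, 33.2 and 39.3 FPKM in control. It rose by 1.48 with SFN+5-FU (adjusted p = 0.000142) and by 0.90 with SFN (adjusted p = 0.00327, and 0.66 without SFN replicate 2). MSRB2, a mitochondrial methionine sulfoxide reductase, was at 3.16, 3.12 and 3.27 FPKM with SFN+5-FU, 4.03, 3.78 and 3.40 FPKM with SFN and 5.07, 4.71 and 4.65 FPKM in control. It fell by 0.47 with SFN+5-FU (adjusted p = 0.000488) and by 0.30 with SFN (adjusted p = 0.00895, also 0.30 without SFN replicate 2).

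In the parallel glutaredoxin system, 2 of 5 genes rose with SFN and none fell, and 2 rose and 2 fell with SFN+5-FU. Without SFN replicate 2, 3 were higher and none lower with SFN, and the counts with SFN+5-FU were again 2 and 2. GLRX3, a cytosolic glutaredoxin of iron-sulfur handling, rose by 0.72 with SFN+5-FU and by 0.73 with SFN (adjusted p = 3.03e-05 and 4.96e-05, and 0.75 without SFN replicate 2 for SFN). GLRX2, mainly mitochondrial, was at 3.58, 4.04 and 3.76 FPKM with SFN+5-FU, 2.11, 3.56 and 2.47 FPKM with SFN and 1.52, 1.37 and 1.62 FPKM in control. It rose by 0.94 with SFN+5-FU and by 0.55 with SFN (adjusted p = 0.000259 and 0.00702, and 0.39 without SFN replicate 2 for SFN). The glutathione reductase gene GSR had log2 fold changes of 0.03 with SFN+5-FU and 0.08 with SFN (adjusted p = 0.712 and 0.401), and 0.15 with SFN without SFN replicate 2 (adjusted p = 0.0478). GSR was named after its values were seen.

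Among 6 tested genes of hydrogen peroxide and superoxide removal, sestrins included, 2 rose and 1 fell with SFN+5-FU, and 2 rose and 3 fell with SFN. They were 2 and 2 with SFN+5-FU, and 2 and 4 with SFN, without SFN replicate 2. CAT, the peroxisomal catalase, was at 5.53, 5.45 and 4.67 FPKM with SFN+5-FU, 9, 5.25 and 7.23 FPKM with SFN and 24.2, 23.9 and 20.5 FPKM in control. It fell by 1.94 with SFN+5-FU (adjusted p = 1.85e-05) and by 1.57 with SFN (adjusted p = 8.30e-05, and 1.39 without SFN replicate 2). GPX1, the selenium-dependent glutathione peroxidase of cytosol and mitochondria, was at 365, 357 and 395 FPKM with SFN+5-FU, 329, 360 and 316 FPKM with SFN and 207, 208 and 214 FPKM in control. It rose by 0.82 with SFN+5-FU and by 0.67 with SFN (adjusted p = 1.87e-05 and 8.44e-05, and 0.62 without SFN replicate 2 for SFN), so that catalase and GPX1 moved in opposite directions in both comparisons with control.

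Of 5 tested genes listed for selenoprotein synthesis, which TXNRD1 and GPX1 need, 2 were higher and 3 lower with SFN+5-FU, and 2 higher and 2 lower with SFN. Over all tested genes, 38.3% were higher and 28.0% lower with SFN+5-FU, and 27.5% and 22.5% with SFN. EEFSEC and SARS1 were lower in both comparisons, and SECISBP2 with SFN+5-FU. PSTK and SEPSECS fell below the expression filter and were not tested. The counts of the 5 genes were the same without SFN replicate 2. SEPHS2, which makes the selenium donor, was at 39.3, 41.6 and 41.2 FPKM with SFN+5-FU, 33.7, 39.2 and 37.3 FPKM with SFN and 25.6, 25.4 and 24.9 FPKM in control. It rose by 0.66 with SFN+5-FU and by 0.52 with SFN (adjusted p = 4.93e-05 and 0.000300, and 0.47 without SFN replicate 2 for SFN). EEFSEC, the elongation factor that carries selenocysteyl-tRNA to the ribosome, was at 3.93, 5.01 and 4.80 FPKM with SFN+5-FU, 9.74, 4.82 and 8.19 FPKM with SFN and 18.1, 17.6 and 17.1 FPKM in control. It fell by 1.74 with SFN+5-FU (adjusted p = 8.13e-05) and by 1.16 with SFN (adjusted p = 0.00114, and 0.90 without SFN replicate 2).

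**Figure D4:**
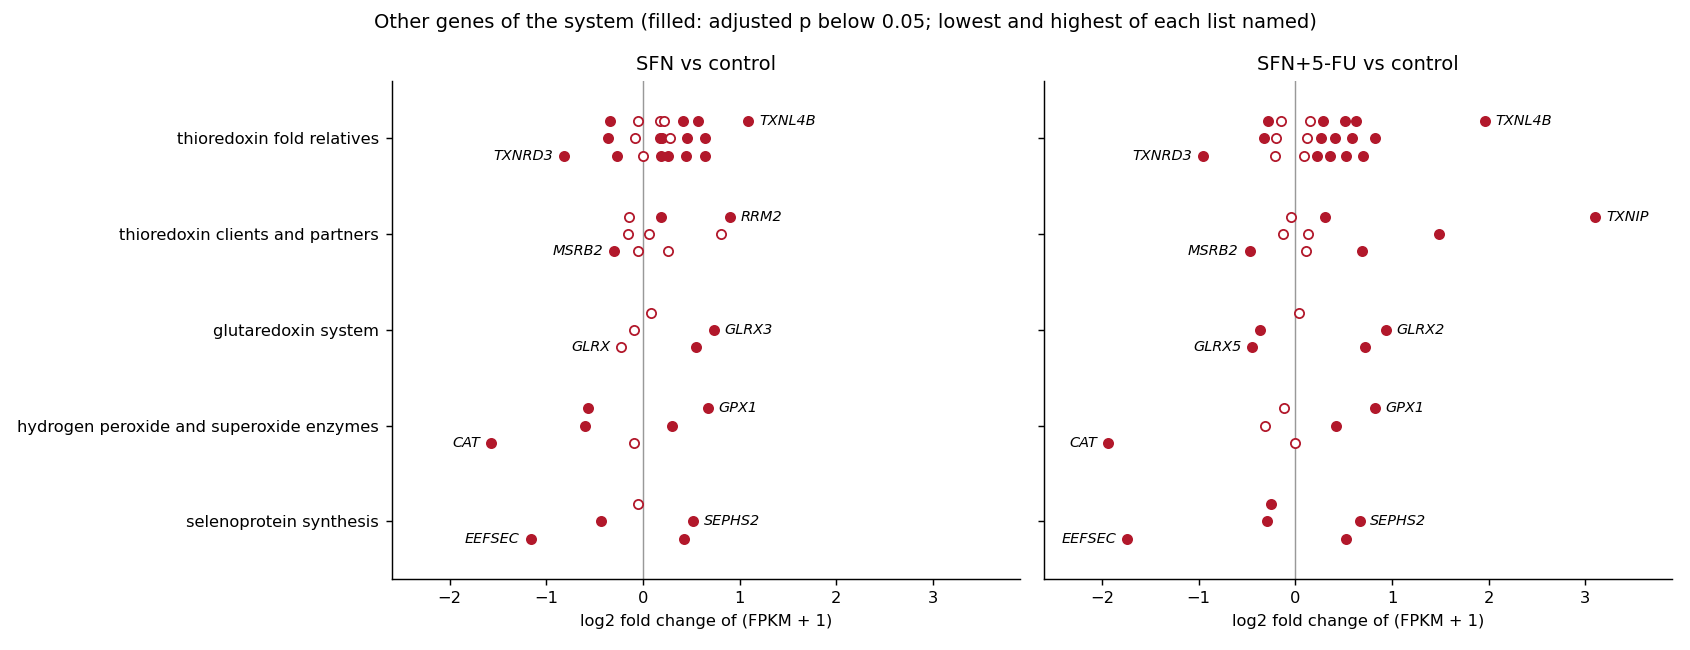
Log2 fold changes of FPKM + 1 (horizontal axis) for the 46 tested genes of the 5 lists, with SFN against control on the left and SFN+5-FU against control on the right. Each point is a gene, filled where the limma adjusted p is below 0.05, and the lowest and highest gene of each list is named, from CAT at -1.57 and -1.94 up to TXNL4B at 1.09 and TXNIP at 3.10.

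Between SFN+5-FU and SFN none of the 46 genes passed with all libraries, and 18 of the 46 had an unadjusted p under 0.05, beside 31.4% of all tested genes. Without SFN replicate 2, 19 were higher and 8 lower with SFN+5-FU, where 51.1% of all tested genes passed. GLRX5, a mitochondrial glutaredoxin, then differed by -0.49 (adjusted p = 0.000469), against -0.35 (adjusted p = 0.134) with all libraries. GPX1 differed by 0.20 (adjusted p = 0.0118), against 0.15 (adjusted p = 0.156), and PRDX4 by 0.16 (adjusted p = 0.02045), against 0.13 (adjusted p = 0.150). SEPHS2 differed by 0.19 (adjusted p = 0.0172), against 0.15 (adjusted p = 0.163). The protein disulfide isomerase gene PDIA6 differed by -0.15 (adjusted p = 0.0189), against -0.10 (adjusted p = 0.274).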

How the data were processed

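RNA-seq of 9 SW480 libraries was used, 3 per group as the labels assign them. The authors deposited 1 table of FPKM per Ensembl gene, and per the submitters' processing notes fastp, StringTie and edgeR were used. No label names the aligner or genome build (not given in the sources used here), and the depth is unknown, so precision rests on the spread between libraries. Symbols came from a reference name table (29784 of 41041 identifiers). Genes with a mean of at least 1 FPKM (12662) were tested with limma 3.58.1 in R 4.3.3 on log2(FPKM + 1), which understates changes of low genes, with a mean-variance trend, all 9 libraries in 1 fit, two-sided, and Benjamini-Hochberg adjustment within each comparison at 0.05. The fit was first tested on simulated data for SFN against control. It recovered 34 of 67 changes of 0.5 on the log2 scale, 62 of 67 of 1 and 66 of 66 of 2, with 9 false calls. Changes of 0.5 or less can therefore be missed. The members and lists were chosen with earlier results of these data known. Named in each comparison were the members, TXNIP, PRDX4, the 2 called genes of largest change per list (the most abundant gene where none was called), and the 3 nearest genes to TXNRD1 and SRXN1. There were 21 alternatives in filter, pseudocount, scaling, variance model, library weights, samples, pairing, GC and length, and libraries left out.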

Additional observations from a re-analysis of the deposited data

How the results depend on the processing

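Depth is unknown, so counting error cannot be given, and 3 libraries a group limit the precision. Over 21 alternatives the members called higher numbered 7 to 8 with SFN against control and 6 to 7 with SFN+5-FU against control. The share of all tested genes called higher ran from 8.99% (no expression filter) to 38.3% (library weights) with SFN. With SFN+5-FU it ran from 14.6% to 46.1% in the same 2 settings. The 1 member called lower with SFN+5-FU became 0 with a filter of 5 FPKM or with the GC and length correction (with or without the replicate block), 2 with median-of-ratios scaling or with only the 6 libraries compared, and 0 to 1 with a library left out. The member added at the count of 2 was PRDX2. With quantile normalization the count stayed at 1, but PRDX2 (-0.232, limma adjusted p = 0.0123) took the place of TXNRD2 (-0.177, adjusted p = 0.0656). The cause of these changes was not tested, except that the filter removes TXNRD2.

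With the filter of 5 FPKM, which tests fewer genes, 3888 genes were called for SFN against control and 4903 for SFN+5-FU against control, against 6333 and 8387, and 5 genes of the lists were lower with SFN. The list genes higher with SFN ranged from 12 (without control replicate 1) to 21 with a library left out. Over the same fits 20.5% (without control replicate 1) to 30.7% (without SFN replicate 1) of all tested genes were higher. Between SFN+5-FU and SFN, library weights gave 3 members higher and 1 lower, 22 list genes higher and 10 lower, and 7432 genes in all. That was 58.7% of all tested genes, with 33.4% higher. With a library left out these counts were 0 to 3 and 0 to 1 for members, 0 to 19 and 0 to 8 for list genes, and 0 to 6480 for all genes. Each upper end came without SFN replicate 2, where 29.7% of all tested genes were higher and 21.5% lower. No gene at all passed with only the 6 libraries compared, with the replicate block, and with the GC and length correction with that block.

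Some log2 fold changes of named genes changed sign, none of them past the threshold in the main fit or with the changed sign. With the sign of the main fit, 2 of them passed for SFN against control. PRDX6 did so without SFN replicate 2 (0.169, limma adjusted p = 0.0217) and with library weights (0.120, adjusted p = 0.0229). PDIA6 did so with quantile normalization (-0.186, adjusted p = 0.0291). For SFN against control, TXNRD2 was at 0.000266 with quantile normalization, 0.00244 with library weights and 0.102 with the GC and length correction (with or without the block). PRDX6 was at -0.0495 with that correction (with or without the block), and TXNIP at -0.279 with library weights. With a library left out, PRDX2 ranged from -0.0840 to 0.0397 (without SFN replicate 3), TXNIP from -0.345 (without SFN replicate 2) to 1.43, PDIA6 from -0.0943 to 0.00316 and GLRX5 from -0.199 to 0.0417 (both without SFN replicate 2). For SFN+5-FU against control, PRDX6 was at -0.0563 with median-of-ratios scaling, -0.0691 with quantile normalization and -0.159 with the GC and length correction (with or without the block). Between SFN+5-FU and SFN, library weights gave 0.00118 for TXN2 and 0.0231 for PRDX2. With a library left out, TXN2 ranged from -0.0448 to 0.0248 and GLRX3 from -0.0375 to 0.0131. The cause was not tested.

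Deviations from the group mean correlated above 0.1 in 1 of 9 same-numbered pairs of libraries from different groups (range -0.143 to 0.107). They did so in 3 of 18 differently numbered pairs (range -0.247 to 0.182). With 3 libraries a group, and SFN replicate 2 apart from its group, these correlations cannot decide whether replicate numbers pair the libraries. With the replicate block, 6038 genes passed for SFN against control and 8151 for SFN+5-FU against control.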
